A study of Mus musculus with 3 samples.

Results

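The 10 genes described here encode parts of the synaptonemal complex and of the meiotic recombination machinery: Sycp1, Sycp2, Sycp3, Syce1, Syce2, Syce3, Dmc1, Meiob, Hormad1 and Stag3. They were chosen by symbol, and all 10 were found among the 26124 gene rows that the 3 libraries share. Single-cell 3′ RNA was measured in mouse with Chromium v3.1 chemistry, with 1 library and so 1 sample per group, and the deposited values are counts of unique molecular identifiers (UMIs, 1 per captured transcript molecule). The KO testis library holds testicular cells of an adult mouse line named goGermline with Tsc22d3 knocked out. The chimera cauda library was drawn by a needle through the skin out of the cauda epididymis, the end of the epididymal duct where sperm are kept, and its cells are labelled "Spermatids, spermatozoa". Its source is a chimera, a Tsc22d3 knockout to which mouse induced pluripotent stem cells (iPSC) had been added as complement, and the labels name the line Pax7-nGFP iPS x goGermline. Cells of the KO cauda library are an aspirate of the same organ from a goGermline Tsc22d3 knockout without complementation, and its label reads "Epididymal cells". All 3 groups thus carry the Tsc22d3 knockout in the host, and the labels do not say how many animals stand behind a library.

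In the prophase of the first meiotic division, homologous chromosomes pair along protein axes and are zipped together by the synaptonemal complex, while programmed DNA breaks are repaired as crossovers. SYCP2, SYCP3, HORMAD1 and the meiotic cohesin subunit STAG3 belong to the axes, SYCP1 forms the transverse filaments, and SYCE1, SYCE2 and SYCE3 belong to the central element between them. DMC1 is the meiosis-specific recombinase that carries out strand exchange, and MEIOB binds single-stranded DNA at the break sites. In males these genes are transcribed as spermatogonia enter meiosis and in spermatocytes, and ripe sperm in the cauda carry only leftover RNA. Tsc22d3 encodes the glucocorticoid-induced leucine zipper protein, and males without it are sterile and lose their germ cells.

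The promoters of the members are shown because the genes turned out to be present together in the same cells, and because some of them share a known germline motif. Windows of 300 bases, from 250 before to 50 after an annotated transcription start, were available from RefSeq (build GRCm38.p6) for 9 of the 10 genes, in 12 windows. The E-box CACGTG, which is bound by the repressor pair MGA and MAX and by other E-box proteins, was searched on both strands. It was present in 6 of the 12 windows, against 7.15% of the 32851 windows in the whole table. By gene it was present in 5 of the 9, against 8.09% of 27025 gene symbols. The 5 genes follow, each with 1 window, 5′ to 3′ on the strand of the gene, with every CACGTG in capitals.
Sycp1, chr3:102936051-102936350, - strand: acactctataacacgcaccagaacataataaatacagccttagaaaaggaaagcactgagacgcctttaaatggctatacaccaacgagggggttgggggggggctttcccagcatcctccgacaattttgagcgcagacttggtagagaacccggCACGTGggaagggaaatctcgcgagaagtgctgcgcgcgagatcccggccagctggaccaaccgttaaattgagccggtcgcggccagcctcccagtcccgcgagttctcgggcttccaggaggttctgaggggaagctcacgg
Sycp3, chr10:88459337-88459636, + strand: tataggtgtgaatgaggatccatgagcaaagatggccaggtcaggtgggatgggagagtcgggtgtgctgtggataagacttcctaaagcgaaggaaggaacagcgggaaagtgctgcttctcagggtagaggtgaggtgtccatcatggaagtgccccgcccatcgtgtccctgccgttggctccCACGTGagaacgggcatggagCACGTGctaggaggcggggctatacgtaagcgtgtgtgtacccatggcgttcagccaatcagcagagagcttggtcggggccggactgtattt
Syce2, chr8:84872008-84872307, + strand: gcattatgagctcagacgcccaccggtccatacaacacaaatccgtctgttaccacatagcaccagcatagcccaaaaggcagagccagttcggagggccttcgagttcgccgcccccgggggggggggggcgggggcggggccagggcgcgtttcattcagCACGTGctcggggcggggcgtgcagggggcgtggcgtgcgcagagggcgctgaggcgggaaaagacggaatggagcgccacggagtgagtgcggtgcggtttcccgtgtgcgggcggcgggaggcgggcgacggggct
Hormad1, chr3:95559427-95559726, + strand: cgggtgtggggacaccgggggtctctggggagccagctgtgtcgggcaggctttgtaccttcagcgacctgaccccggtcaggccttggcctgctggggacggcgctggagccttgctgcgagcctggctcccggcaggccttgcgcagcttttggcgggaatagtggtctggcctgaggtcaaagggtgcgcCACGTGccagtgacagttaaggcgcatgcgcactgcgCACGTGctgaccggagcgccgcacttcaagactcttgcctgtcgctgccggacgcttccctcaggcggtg
Stag3, chr5:138280259-138280558, + strand: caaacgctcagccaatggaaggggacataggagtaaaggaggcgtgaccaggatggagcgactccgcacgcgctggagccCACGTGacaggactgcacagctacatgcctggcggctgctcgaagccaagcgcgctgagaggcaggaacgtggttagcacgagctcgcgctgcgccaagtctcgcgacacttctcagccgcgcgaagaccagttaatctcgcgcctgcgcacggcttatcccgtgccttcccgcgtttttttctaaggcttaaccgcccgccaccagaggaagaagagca
The match began 94 bases before the start in Sycp1, 64 and 43 bases before it in Sycp3, 88 bases before it in Syce2, 57 and 20 bases before it in Hormad1 and 170 bases before it in Stag3. Syce2 has 2 windows, and the other, 147 bases upstream, held no match. Hormad1 also has 2 windows, 2 bases apart, which hold the same matches. The windows of Sycp2, Syce1, Syce3 and Dmc1 held none.

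Other motifs of germline regulators were searched in the same way. The letters GCGGGAA, a site of E2F factors, were in 5 of the 12 windows (Sycp3, Syce2, Hormad1 with both windows, and Stag3), against 4.6% of all windows. By gene they were in 4 of the 9, against 5.29% of all gene symbols. CNCCTCAG, the site of the meiotic initiation factors STRA8 and MEIOSIN, was in the windows of Sycp1 and Syce2, 2 of 12, against 7.94% of all windows. In Syce2 this match overlapped that of GCGGGAA. The CRE core TGACGT was in 0 of the 12 windows, against 7.51% of all windows. These are matches of letters and were not tested as binding sites.

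The KO testis library held 134795047 UMIs over 18108 barcodes, the chimera cauda 5395856 UMIs over 214502 barcodes with at least 1 UMI, and the KO cauda 41862286 UMIs over 3937 barcodes. Of the chimera barcodes, 222 reached 500 UMIs, as every barcode of the KO libraries did. The 2 cauda libraries share barcodes: of the 3937 in the KO cauda, 3936 held at least 1 chimera UMI. In 3815 of these the KO cauda had more UMIs, and the chimera held a median of 0.901% of the KO cauda's UMIs there. In 121 the chimera had more, and the KO cauda held a median of 18.1% of its UMIs. Barcodes on the KO cauda list carried 58.8% of all chimera UMIs and were 125 of its 222 largest barcodes. The chimera results that rest on many of them are given with and without them. Only 973 of the 18108 testis barcodes had a UMI in the chimera. Levels are given as CPM, the UMIs of a gene per 1000000 UMIs of the library or barcodes named. Tsc22d3 itself had 816 UMIs (6.05 CPM) in the KO testis, 123 (22.8 CPM) in the chimera cauda and 453 (10.8 CPM) in the KO cauda. Whether these 3′ tags lie in the deleted part is not given in the sources used here, so they do not check the labels.

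All 10 genes were measured in the KO testis, and 8 of them had at most 5 UMIs in the KO cauda. Sycp3, an axis protein, had 2269 UMIs in the KO testis, 11 in the chimera cauda and 1 in the KO cauda, that is 16.8, 2.04 and 0.0239 CPM. Sycp1 had 1430, 29 and 2 UMIs in the same order, or 10.6 CPM in the KO testis, 5.37 CPM in the chimera cauda and 0.0478 CPM in the KO cauda. Hormad1, which marks unsynapsed axes, had 645 UMIs in the KO testis, 5 in the chimera cauda and 1 in the KO cauda. The testis held these 3 genes at the highest level, and the KO cauda held 1 or 2 molecules of each. Sycp2, the partner of SYCP3, had 438 UMIs (3.25 CPM) in the KO testis, 16 (2.97 CPM) in the chimera cauda and 1 in the KO cauda. The cohesin gene Stag3 had 287 UMIs (2.13 CPM) in the KO testis, 30 (5.56 CPM) in the chimera cauda and 21 (0.502 CPM) in the KO cauda. In CPM, Stag3 was thus highest in the chimera cauda and for Sycp2 the ratio of KO testis over chimera cauda was 1.10 (95% interval 0.667 to 1.93).

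The central element genes did not follow a single order. Syce1 had 411 UMIs (3.05 CPM) in the KO testis, 47 (8.71 CPM) in the chimera cauda and 1 in the KO cauda, so in CPM it stood higher in the chimera cauda. Syce3 had 524 UMIs (3.89 CPM) in the KO testis, 12 (2.22 CPM) in the chimera cauda and 0 in the KO cauda. There a 0 was set at the floor of 3 UMIs or 0.0717 CPM, and its exact upper limit was 0.0881 CPM. Syce2 had 3544 UMIs (26.3 CPM) in the KO testis, 967 (179 CPM, 95% interval 168 to 191) in the chimera cauda and 204 (4.87 CPM) in the KO cauda. It was the member with the most UMIs in all 3 libraries. The recombination genes were the rarest in the KO testis and the chimera cauda: Dmc1 had 228, 1 and 2 UMIs, and Meiob 159, 1 and 5 UMIs, in the KO testis, the chimera cauda and the KO cauda.

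**Figure D1:**
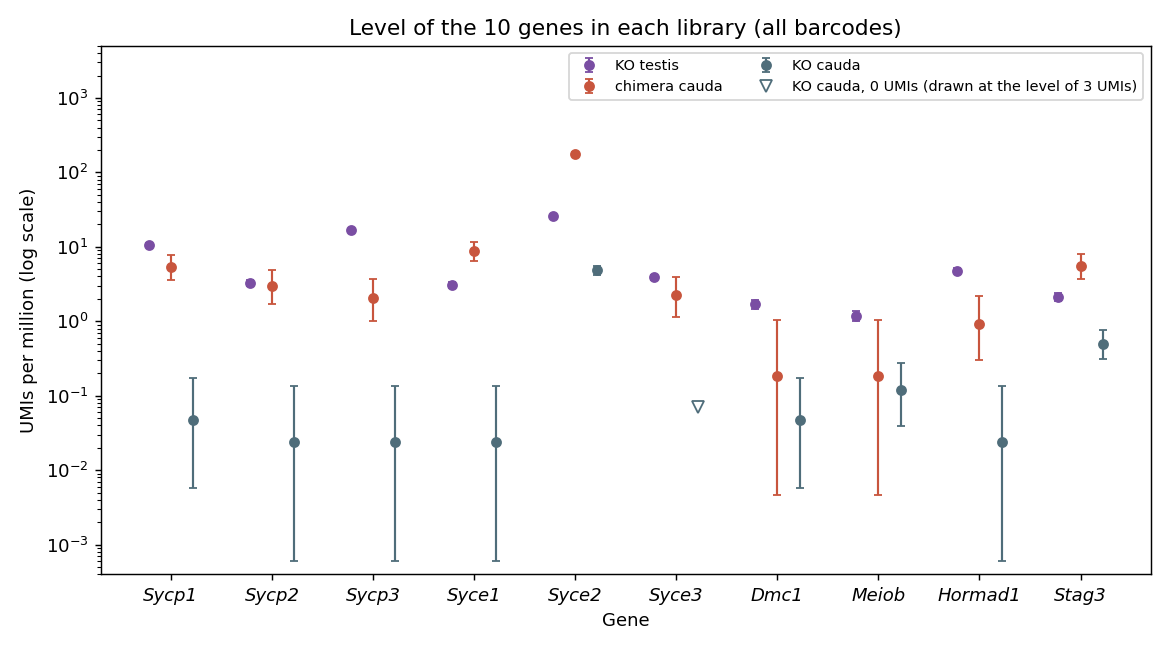
Level of each of the 10 genes, in CPM on a log scale, over all barcodes of the KO testis, the chimera cauda and the KO cauda; bars are exact Poisson 95% intervals and the open triangle stands at the level of 3 UMIs for a count of 0. Syce2 at 179 CPM in the chimera cauda is the highest point, and 6 genes stand on 1 or 2 UMIs in the KO cauda.

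With 1 library per group no test of the groups was possible, and each ratio carries an exact 95% interval for counting error only. Of the 9 members with at least 4 UMIs in either cauda library, 8 were at least 4-fold higher in the chimera cauda than in the KO cauda and 0 were at least 4-fold lower. The background over all 17008 genes so measured was 9.71% higher and 1.77% lower. Only Syce2 could have been counted as lower, since the other 9 genes stood at 0.502 CPM or less in the KO cauda. In the chimera cauda 1 UMI is 0.185 CPM and a 0 was set at 0.556 CPM, both too high for a 4-fold lower call. A gene was counted as higher only if the chimera cauda itself held UMIs of it. Sycp1, Sycp2, Sycp3, Syce1, Syce3 and Hormad1 had at most 2 KO cauda UMIs and met the minimum of 4 UMIs only through the chimera cauda. At these library totals 4 chimera UMIs against so few are always past 4-fold, so these calls follow from the filter. The ratios were 36.8-fold (31.6 to 43.0) for Syce2, 11.1-fold (6.14 to 20.4) for Stag3 and 112-fold (28.5 to 973) for Sycp1, while Syce1, at 47 UMIs against 1, gave 365-fold (62.3 to 14705). Sycp2 gave 124-fold (19.3 to 5205), Sycp3 85.3-fold (12.4 to 3673) and Hormad1 38.8-fold (4.34 to 1835), each against a single KO cauda UMI. Syce3, at 12 UMIs against 0, stood at 31.0-fold with the 0 set at the floor of 3 UMIs, and the exact lower limit of its ratio was 21.6. The exception among the 9 was Meiob at 1.55-fold (0.0328 to 13.9), and Dmc1 had too few UMIs to be counted. Without Syce2 the other 9 genes summed to 152 UMIs in the chimera cauda and 34 in the KO cauda, or 34.7-fold (23.8 to 51.9).

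Leaving out the shared barcodes kept these counts. With each shared barcode counted only in the library where it had more UMIs, 8 of 9 members were again at least 4-fold higher, against a background of 10.3% (2.05% lower). With every barcode of the KO cauda list removed from the chimera, and those richer in the chimera removed from the KO cauda, the count was 8 of 9 against 12.5% (2.67% lower), and the summed ratio of the 9 genes without Syce2 was 78.5-fold (53.1 to 119). In the chimera, 135 of the 152 UMIs of these 9 genes and 932 of the 967 Syce2 UMIs lay outside the KO cauda list. Of the 204 Syce2 UMIs in the KO cauda, 8 lay in barcodes richer in the chimera. Both libraries at a minimum of 500 UMIs per barcode gave 6 of 7 measured members, against 6.01% of all genes (2.72% lower). The 1 that was not counted was Meiob, with 0 UMIs in the chimera cauda and 5 in the KO cauda. The KO cauda thinned to the chimera's total gave 6 of 8, against 8.46% (2.47% lower). Leaving out mitochondrial and globin genes gave 8 of 9, against 10.3% (1.61% lower), and chimera barcodes below 500 UMIs gave 6 of 7, against 11% (1.87% lower). Except with the KO cauda thinned, the calls of Sycp1, Sycp2, Sycp3, Syce1, Syce3 and Hormad1, where measured, again followed from the filter. In each setting only Syce2 could have been counted as lower.

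The KO testis stood at least 4-fold above the KO cauda for 10 of 10 members, against 19.1% of the 19278 genes measured (11.1% were lower), with Sycp3 at 705-fold (126 to 27845) and Stag3 lowest at 4.24-fold (2.72 to 6.96). Against the chimera cauda, 4 of the 10 were at least 4-fold higher in the KO testis, where the background was 12.5%, and 1 was at least 4-fold lower, where it was 15.4%. The 4 were Sycp3 at 8.26-fold (4.61 to 16.6), Hormad1 at 5.16-fold (2.20 to 16.0), Dmc1 at 9.13-fold (1.62 to 362) and Meiob at 6.36-fold (1.13 to 253). Syce2 was the lower gene, at 0.147-fold (0.137 to 0.158).

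Other meiosis lists differed in how far their genes stood apart between the cauda libraries, and the differences between lists were not tested. The median log2 ratio of the members was 5.28, against 0.20 for all genes, with a 0 set at the floor. Of the other meiosis lists, pachytene and later meiosis came nearest, with 7 of 10 genes at least 4-fold higher in the chimera cauda and a median of 4.30. Meiotic entry followed, with 3 of 5 measured genes higher and a median of 3.09. Among 15 further axis and synaptonemal complex genes, 5 of 9 measured were higher (median 2.22). Smc1b, the meiotic cohesin subunit, was among them, at 30 UMIs in the chimera cauda and 8 in the KO cauda. Of 9 genes of break formation, 3 were higher (median 0.37), among them Ankrd31 at 28 UMIs in the chimera cauda and 2 in the KO cauda. Of 12 further strand exchange genes, 1 of 10 measured was higher and 1 lower (median 0.09). Of 11 crossover genes, 2 of 6 measured were higher (median 1.05). The most abundant genes of these lists had many UMIs in the KO cauda as well: Zcwpw1, a reader of PRDM9 marks, had 218 UMIs (40.4 CPM) in the chimera cauda and 2531 (60.5 CPM) in the KO cauda. Msh5, a crossover factor, had 242 UMIs (44.8 CPM) in the chimera cauda and 854 (20.4 CPM) in the KO cauda. Markers of elongating spermatids were at least 4-fold higher in the chimera cauda for 10 of 10 genes, with 73334 UMIs against 338 in the KO cauda, and their part in the members' ratios was not tested. High ratios were not limited to germline lists. Of the erythroid list 6 of 6 measured genes were higher (median 6.39), of the fibroblast list 2 of 3 (4.21) and of the Sertoli list 2 of 6 (1.68). The other somatic lists, such as macrophage and epididymal epithelium, had 0 higher. In these libraries fewer cells of a type and less RNA per cell cannot be told apart.

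In the KO testis the members were present together. A barcode with at least 3 of the 10 genes at 1 UMI or more is called joint here, and 113 of 18108 barcodes were joint (0.624%, exact binomial 95% interval 0.515 to 0.750). No member had a UMI in 15274 barcodes, a single member was present in 2577, and 2 members were present in 144. From 3 to 10 members the counts no longer declined: 11, 11, 11, 12, 21, 12, 21 and 14 barcodes held 3, 4, 5, 6, 7, 8, 9 and 10 of the genes. In the chimera cauda 3 barcodes were joint, and in the KO cauda 0 of 3937, where 3 barcodes would be a share of 0.0762%. The highest number in the KO cauda was 2 members, in 9 barcodes.

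**Figure D2:**
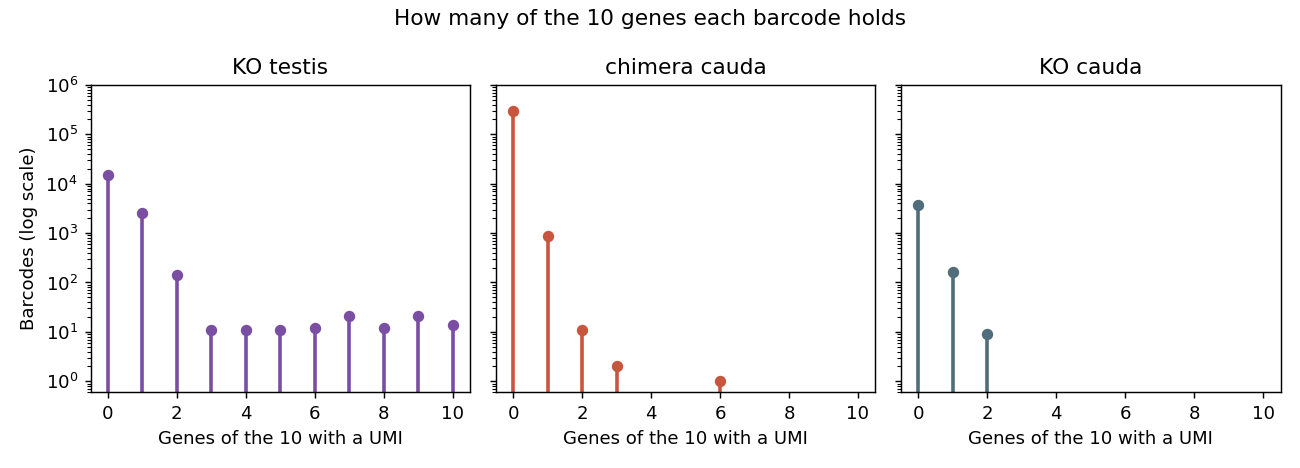
Number of barcodes, on a log scale, that hold a given number of the 10 genes, in the KO testis, the chimera cauda and the KO cauda. In the KO testis the counts stay between 11 and 21 from 3 to 10 genes, while the KO cauda ends at 2 genes.

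The joint barcodes held 1.55% of the testis UMIs and 62.8% of all UMIs of the 10 genes, or 88.5% without Syce2. Their median depth was 17033 UMIs, against 4772 in the other barcodes, and depth makes a gene easier to detect. With every barcode of at least 2000 UMIs thinned to 2000, 62 of 15885 barcodes were joint. Thinning only removes UMIs, so these 62 had to be among the 113. Of the 113, 4 had fewer than 2000 UMIs and were left out. Sycp1 had 1389 of its 1430 testis UMIs in joint barcodes (97.1%, 96.1 to 97.9), Hormad1 96.9% of 645, Sycp2 93.4% of 438 and Sycp3 92.1% of 2269. Syce3 had 84.7%, Stag3 76.7%, Meiob 69.8% and Syce1 67.6% there. Dmc1 had 40.8% (34.3 to 47.5) and Syce2 16.3% (15.1 to 17.6). These shares follow in part from the rule, which asks for members, and barcodes with few UMIs of a gene were also found elsewhere: Sycp3 was present in 103 joint and 153 other barcodes.

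The joint barcodes held 998 CPM of Sycp3 against 1.36 CPM in the other barcodes, 664 against 0.309 CPM of Sycp1, and 299 against 0.151 CPM of Hormad1. Syce2 differed least, at 276 CPM in joint and 22.4 CPM in other barcodes. These levels follow in part from the rule that chose the barcodes and are given as a description. Outside the joint barcodes no barcode had more than 3 UMIs of Sycp1, 1 of Hormad1, 2 of Sycp2 or 7 of Sycp3. Of the 61 barcodes with at least 5 Sycp1 UMIs all 61 were joint, as were 73 of 74 for Sycp3 and 31 of 31 for Hormad1, but 56 of 78 for Syce2. Among all barcodes with Sycp1, 73% (64.7 to 80.2) also held Sycp3, which was present in 1.41% of all barcodes, and 54.7% (46.0 to 63.3) held Hormad1, present in 0.536%.

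The cells were also grouped by expression, with the members and the other meiosis lists left out of the grouping genes. Of the 113 joint barcodes, 104 passed the cell filter and 9 exceeded 20% mitochondrial UMIs. Doublet scoring marked 18 of the 104 (17.3%), against 10.9% of all filtered cells. Of the remaining 86, 82 fell into cluster 12, whose leading genes included Tuba3a, Smc1b, Taf7l, Usp26, Dazl and Mov10l1, 3 into a Sertoli-like cluster and 1 into a Leydig-like cluster. Cluster 12 held 151 cells and 90.2% of the filtered UMIs of the 9 members without Syce2. Its other 69 cells had 11 UMIs of Sycp3, 1 of Sycp1 and 9 of the germ cell gene Dazl, against 1744, 1122 and 2103 UMIs in the 82 joint cells. Those 69 cells held Leydig genes at 10721 CPM, against 740 CPM in the joint cells, and the proliferation gene Mki67 at 455 CPM, against 175 CPM. By its markers cluster 12 came nearest to the list of later meiosis, but it holds both kinds of cell and is not given a cell type name.

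Germ cell genes were present in the 82 joint cells beside the members. Dazl, an RNA-binding protein of germ cells, stood at 1326 CPM in joint cells of cluster 12 and 3.07 CPM in the cells of all other clusters. Ddx4, the germline RNA helicase, stood at 240 CPM in the joint cells and 0.306 CPM in the other clusters. Of the spermatogonial list, Uchl1 had 1040 UMIs, Dmrt1 208 and Sohlh1 168 in the joint cells, and the stem cell genes Gfra1 and Id4 had 10 and 21. This list stood at 1399 CPM in the joint cells and 330 CPM in the other clusters. Its genes Kit and Etv5 went the other way, at 43.5 and 8.83 CPM in the joint cells against 197 and 35.5 CPM. The list of meiotic entry, with Stra8, Meioc, Rbm46 and Dazl, stood at 2087 CPM, against 31.0 CPM in the other clusters. Lists of spermatids had few UMIs, 43 of round and 15 of elongating spermatid genes over the 82 cells. In CPM they stood at 27.1 and 9.46 there, against 5.18 and 1.14 in the other clusters. Somatic markers were present too, and over all 113 joint barcodes the Leydig list stood at 2411 CPM, against 11270 CPM in the other barcodes. The Leydig list had a UMI in all 113 joint barcodes, the Sertoli list in 42 and the macrophage list in 56, and their part in the members' levels was not tested.

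The joint barcodes differed in how many members they held and at what level. The 35 barcodes with 9 or 10 members held 4449 of the 6236 joint member UMIs, or 5248 CPM, at a median depth of 23105 UMIs. The 33 with 7 or 8 members stood at 1794 CPM (median depth 20434), the 23 with 5 or 6 members at 1395 CPM (13866), and the 22 with 3 or 4 members at 546 CPM (9936). In that order the Leydig list, pooled over the barcodes of each kind, stood at 1696, 1239, 2859 and 7294 CPM. These levels rest in part on single barcodes: 1 with 3 members held 762 Leydig UMIs and another 420, while 1 with 4 members held 1. Single barcodes with 6 and 9 members held 583 and 469. The member sum was between 3 and 558 UMIs per barcode, with a median of 30. The highest was in a barcode of 52326 UMIs with 253 of Sycp3, 116 of Hormad1, 89 of Sycp1, 29 of Sycp2, 21 of Syce3, 14 of Syce2, 12 of Meiob, 11 of Syce1, 7 of Stag3 and 6 of Dmc1. The deepest barcode, with 58731 UMIs, held all 10 genes at 1 to 8 UMIs each and 116 UMIs of the spermatogonial list. The deepest barcode was thus not the one with most member UMIs.

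**Figure D3:**
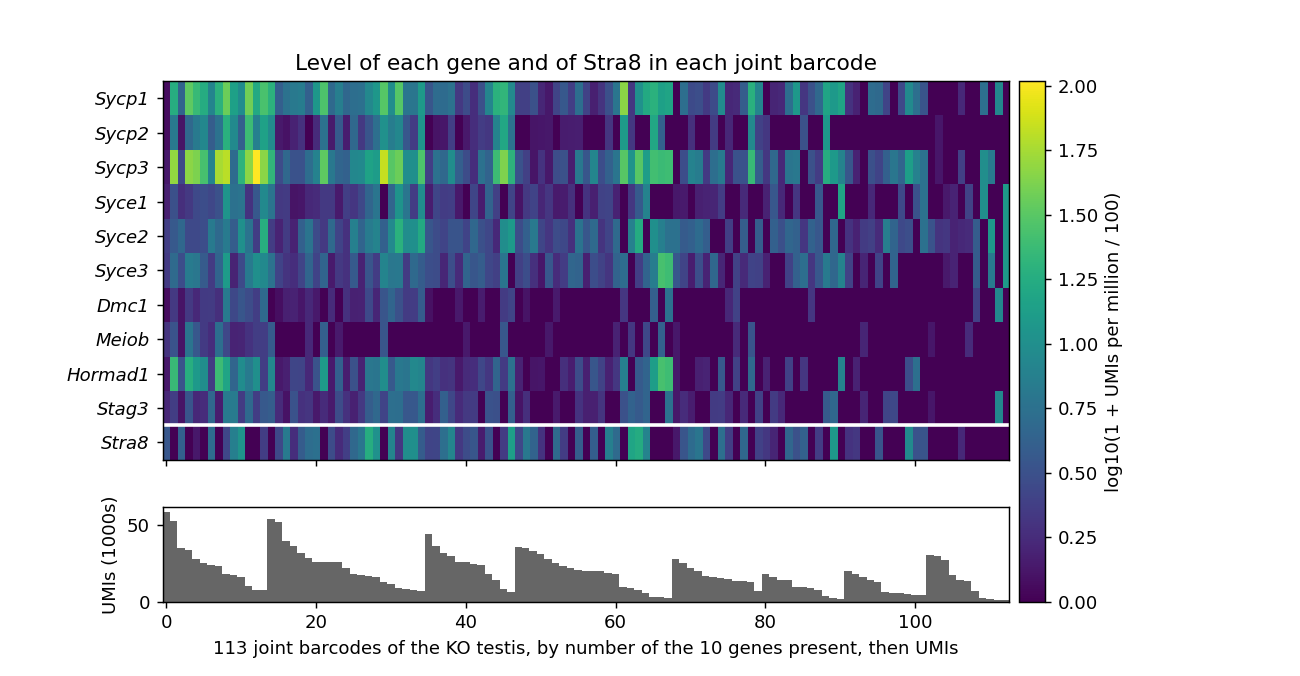
Level of each member and of Stra8 in each of the 113 joint barcodes of the KO testis, as log10(1 + CPM / 100) in colour, with the barcodes ordered by the number of members present and then by UMIs, which the lower panel shows. Sycp3 and Sycp1 reach the highest levels, Meiob and Dmc1 are absent from most barcodes, and Stra8 is at 0 in 40 of them.

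Stra8 is switched on by retinoic acid at meiotic entry and is known to decline as prophase goes on, so the joint barcodes were split by it. Stra8 was at 0 UMIs in 40 joint barcodes (median depth 13324 UMIs) and present in 73 (18104 UMIs). Sycp3 stood at 1876 CPM in the barcodes without Stra8 and 632 CPM in those with it, a ratio of 2.97 (2.72 to 3.24). Meiob stood at 128 CPM without Stra8 and 21.7 CPM with it (5.91-fold, 3.87 to 9.20). Hormad1 stood at 629 CPM without Stra8 and 161 CPM with it (3.92-fold, 3.32 to 4.62). Sycp2 (2.68-fold), Sycp1 (2.29-fold) and Syce3 (1.57-fold) were also higher without Stra8 in the pooled UMIs. Syce1 (1.02, 0.778 to 1.32), Dmc1 (1.08, 0.674 to 1.71) and Stag3 (0.918, 0.672 to 1.24) had intervals that include 1, and Syce2 was lower without Stra8, at 178 against 317 CPM (0.562, 0.453 to 0.693). These pooled ratios rest on few barcodes: the 6 highest of the 40 without Stra8 held 323 of the 388 Hormad1 UMIs, 65 of 79 of Meiob and 812 of 1157 of Sycp3. Hormad1 was present in 20 of the 40 barcodes without Stra8 and 57 of the 73 with it, and its median per barcode was 22.7 CPM without and 94.9 CPM with Stra8, the other direction. For Sycp1 the median barcode also turned round, at 318 CPM without and 414 CPM with Stra8, and Sycp2 had a median of 0 without and 38.6 CPM with it. Sycp3, present in 32 of 40 and 71 of 73, had medians of 481 CPM without and 424 CPM with Stra8, and Syce3 284 and 149 CPM. Meiob was present in 16 barcodes of each kind. These are cells of 1 library, and the intervals cover counting error only.

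**Figure D4:**
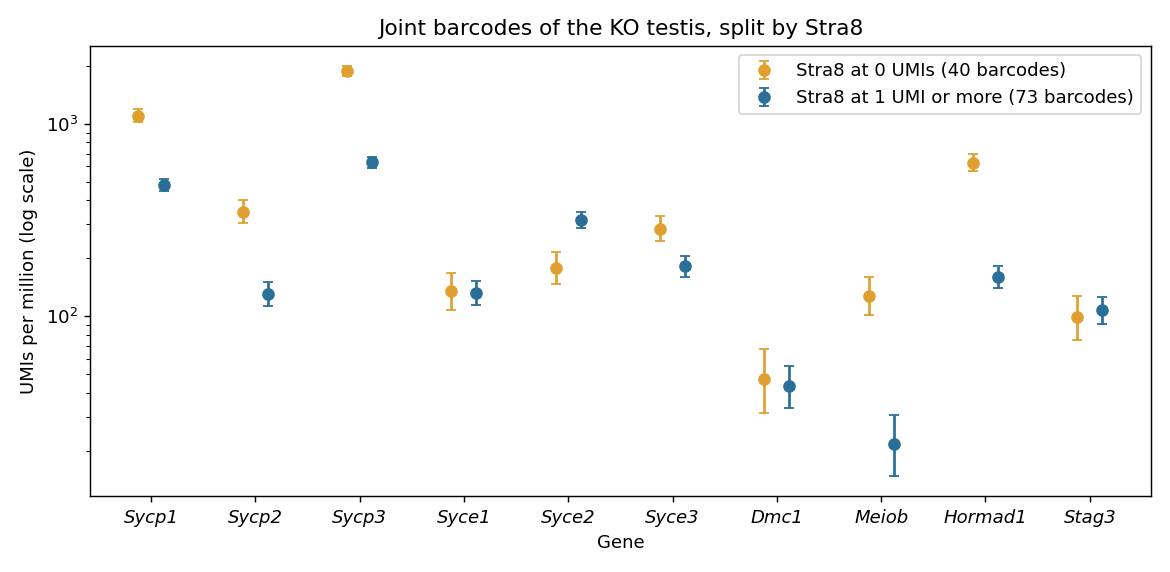
Level of each member, in CPM on a log scale with exact Poisson 95% intervals, over the 40 joint barcodes of the KO testis with Stra8 at 0 UMIs and the 73 with Stra8 present. UMIs are pooled over the barcodes of each kind, and Meiob, Hormad1 and Sycp3 lie furthest apart, while Syce2 is higher with Stra8.

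Other genes of prophase were split as well. Among the 9 break formation genes, Zcwpw1 stood at 84.3 CPM without and 331 CPM with Stra8 (0.254, 0.187 to 0.339). It was present in 22 of the 40 and 67 of the 73 barcodes. Rec114, a cofactor of the break-making SPO11, stood at 13.0 and 60.3 CPM (0.215, 0.0900 to 0.442) and was present in 6 and 42. Mei4, Top6bl and Mei1 had only 0, 1 and 4 UMIs without Stra8. These ratios too are of pooled UMIs, and medians per barcode are not given for these genes. The list as a whole stood at 233 CPM without and 592 CPM with Stra8. Spo11 itself, with 14 UMIs without and 10 with Stra8, stood at 3.35-fold (1.38 to 8.43), and Ankrd31 at 0.989-fold (0.709 to 1.36). Cohesin Smc1b stood at 269 CPM without and 693 CPM with Stra8 (0.388), and Tex15 at 141 and 552 CPM (0.255). Among strand exchange genes, Brca2 (0.473) was lower and Psmc3ip (2.41) and Rad51ap2 (3.57) were higher without Stra8. The barcodes without Stra8 were mixed: the Sertoli list stood at 494 CPM there and 39.3 CPM with Stra8, and Sycp1 was absent from 10 of the 40 but from 2 of the 73. The part of these other cells in the ratios was not tested.

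Genes of pachytene, the stage of full synapsis, had a UMI in 101 of the 113 joint barcodes, but unevenly. The list of 10 such genes stood at 1561 CPM without Stra8 and 335 CPM with it, and 532 of its 963 UMIs without Stra8 lay in 1 barcode. That barcode held 54103 UMIs, 9 members (109 UMIs of Sycp3, 102 of Sycp1, 0 of Dmc1), 193 UMIs of Ldhc, the testis-specific lactate dehydrogenase, 114 of the piRNA gene Piwil1 and 102 of the heat shock gene Hspa2. Genes of the X chromosome, which is silenced in pachytene spermatocytes, made up 0.0514% of its X and autosomal UMIs, against a median of 2.42% in joint barcodes and 3.75% in the others. The next lowest joint barcodes stood at 0.587%, with 23105 UMIs and all 10 members, and at 1.11%. A share under 1% was found in 2 of the 113 joint barcodes and 36 of the other 17995. Without the lowest barcode, the pachytene list still stood at 766 CPM without and 335 CPM with Stra8, a ratio of 2.28 in place of 4.65. Ldhc then had 11 UMIs in the barcodes without Stra8 and 5 in those with it, a ratio of 5.77 (1.85 to 21.2) in place of 97.6. Piwil1 stood at 1.44 (0.624 to 3.16) in place of 14.9. Hspa2 stayed at 7.44 (5.52 to 10.1), Mybl1 at 9.32 (4.35 to 22.2) and Tesmin at 3.89 (2.37 to 6.46). Mael went the other way, at 0.871 (0.672 to 1.12), and Ccna1 had 0 UMIs without and 3 with Stra8. These ratios are of pooled UMIs. The member ratios moved less than those of Ldhc and Piwil1: Sycp3 was then 2.95, Hormad1 3.83 and Meiob 5.24, while Syce1 was 0.753 (0.549 to 1.02) and Stag3 0.742 (0.521 to 1.04).

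The genes most like the members in the KO testis were ranked by the share of their UMIs in joint barcodes, among 14107 genes with at least 30 testis UMIs. The 8 highest were D1Pas1 (100% of 39 UMIs), a germline RNA helicase, Lin28b (98.9% of 91), Zfy2 (98.8% of 86), Magea8 (98.7% of 77), the testis histone Hist1h2aa (98.4% of 365), Figla (98.2% of 57), Ugt8a (97.6% of 85) and Asz1 (97.5% of 163), a piRNA pathway gene. Over all ranked genes the median share was 1.75%, and 92 genes exceeded 90%. Of the other meiosis lists, Smc1b (95.9% of 1240), Tex11 (95.5% of 244), Tex12 (94.1% of 410), a central element gene, and Ankrd31 (94.0% of 200) had shares like those of Sycp2 and Sycp3. Psmc3ip (19.5% of 1125), Mnd1 (8.03% of 946) and Sun1 (4.08% of 3183) were mostly elsewhere, as Syce2 was.

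Syce2 was often present without the other members. It was found in 2306 of the 18108 testis barcodes, 2076 of which held no other member. Outside the joint barcodes it was present in 12.3% of barcodes, against 0.111% to 0.850% for each of the other 9 genes. Free RNA was not separated from RNA of the cell, and all 113 joint barcodes held UMIs of the Leydig list. The Leydig-like cluster 1 of 2925 cells held 1575 of its UMIs, at 33.4 CPM (31.8 to 35.1), against 3.14 CPM for the other 9 members summed. In the KO cauda its highest levels were in cluster 11, led by the division genes Ube2c, Cenpf and Birc5, with 33 UMIs in 14 of 21 cells (51.8 CPM, 35.6 to 72.7) and macrophage-like by its markers, and in cluster 9, led by the epididymal genes Pate1, Defb11 and Wfdc6b, with 20 UMIs in 12 of 73 cells (50.9 CPM, 31.1 to 78.6). Neither cluster held a barcode richer in the chimera. The B lymphocyte-like and macrophage-like clusters 1 to 5 lay between 2.01 and 4.06 CPM.

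Division genes, chosen after these values were seen, moved with Syce2. In testis barcodes outside the joint ones that held both Mki67 and Top2a, 128 in number, Syce2 stood at 84.0 CPM (72.1 to 97.3), against 21.1 CPM (20.3 to 21.9) in the 17493 with neither. In the KO cauda it stood at 45.7 CPM (33.8 to 60.4) in 35 such barcodes and 3.59 CPM (3.01 to 4.25) in 3725 with neither. The other 9 members summed to 14.7 and 5.22 CPM in the testis and to 1.86 (2 UMIs) and 0.766 CPM in the KO cauda, in the same order. The barcodes with both division genes were deeper, with a median of 13682 UMIs against 4706 in the testis and 29873 against 8754 in the KO cauda, and the part of depth in these levels was not tested.

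Reads of overlapping genes bear on Syce2 and Sycp3. Syce2 (GRCm38 chr8:84872111-84888221, plus strand) overlaps Gcdh on the opposite strand by 1829 bases, with the 3′ ends of both genes facing each other. Sycp3 (chr10:88459569-88473236, plus strand) lies wholly within Chpt1 on the opposite strand, over 13668 bases. How strand was used in counting is not given in the sources used here, so reads of each pair cannot be told apart with certainty. Gcdh had 3375 UMIs (25 CPM) in the KO testis, 47 (8.71 CPM) in the chimera cauda and 352 (8.41 CPM) in the KO cauda, so it did not share the high level of Syce2 in the chimera cauda. Chpt1 had 6839 UMIs (50.7 CPM) in the KO testis, 290 (53.7 CPM) in the chimera cauda and 638 (15.2 CPM) in the KO cauda.

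In the chimera cauda the members were examined by the size of the barcode that carried them. Below 500 UMIs per barcode lay 79.1% (76.6 to 81.4) of the 1119 member UMIs, against 45.5% of all UMIs. For Syce2 the share was 81.6% (79.0 to 84.0) and for the other 9 summed 63.2% (55.0 to 70.8). The elongating spermatid list had 88.4% of its UMIs there, the epididymal epithelium list 89.6%, the erythroid list 56.1% and the macrophage list 40.4%. Without the barcodes of the KO cauda list the order changed: 84.0% for Syce2, 69.6% for the other 9, 91.0% for elongating spermatids, 97.8% for macrophages and 93.7% of all UMIs. The members' share was then below that of all UMIs.

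By bin, Syce2 stood at 137 CPM in barcodes of 1 to 9 UMIs, 364 at 10 to 19, 399 at 20 to 49, 266 at 50 to 99, 131 from 100 to under 200, 378 from 200 to under 500 and 60.5 CPM at 500 and more. The other 9 genes summed to 17.7, 52.4, 48.6, 26.9, 34.9, 7.27 (1 UMI) and 19 CPM over the same bins. Without the barcodes of the KO cauda list, the top bin of 97 barcodes reached 295 CPM for the 9 genes (41 UMIs) and 1071 CPM for Syce2 (149 UMIs), above all lower bins for both.

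**Figure D5:**
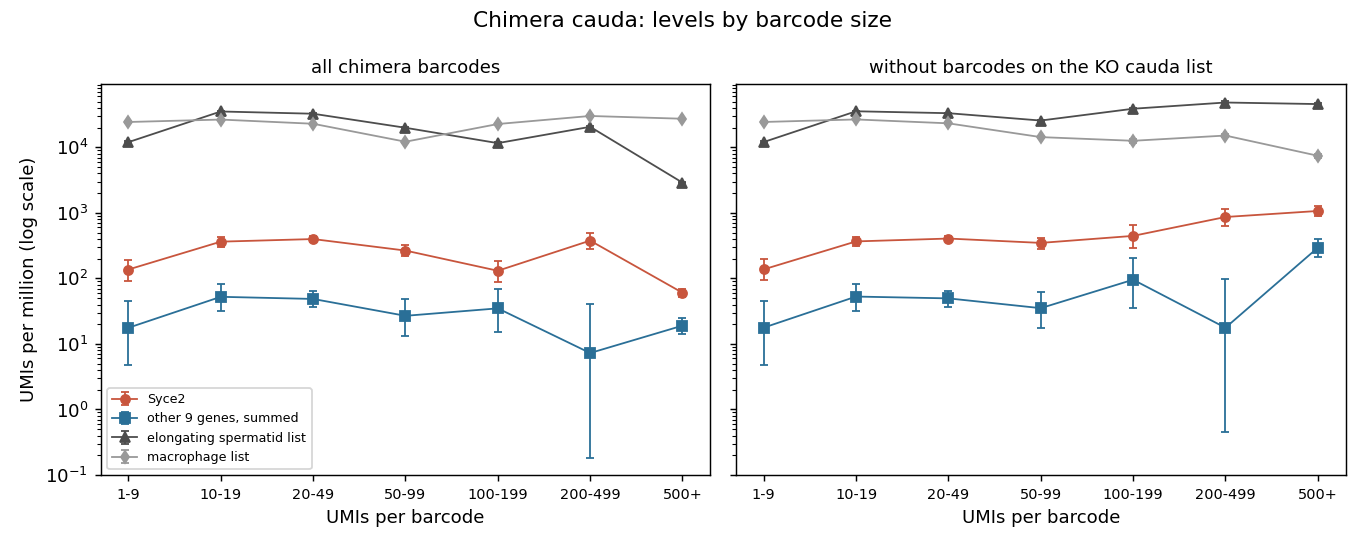
Level of Syce2, of the other 9 genes summed and of the elongating spermatid and macrophage lists, in CPM on a log scale, by UMIs per barcode in the chimera cauda, with exact Poisson 95% intervals. The left panel has all chimera barcodes and the right panel leaves out those on the KO cauda list, where Syce2 and the 9 genes are highest at 500 UMIs and more.

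Among larger chimera barcodes Syce2 was found with sperm RNA. The elongating spermatid-like cluster of 26 cells, led by Cabs1, Crisp2, Oaz3 and Smcp, held 156 Syce2 UMIs in 24 cells, at 4491 CPM (3814 to 5254), and 4 UMIs of the other 9 members. Only 2 of its 26 barcodes were on the KO cauda list, and they held 19 of the 156 UMIs. Among barcodes of 10 to 19 UMIs, the elongating spermatid list stood at 36098 CPM in the 128 with Syce2 and 35351 CPM in the 22812 without any member, so there the kinds of barcode were close. At 20 to 49 UMIs it stood at 40617 CPM with Syce2 and 32574 CPM without a member, and at 50 to 99 at 41988 and 19490 CPM. Most barcodes without a member in the next bins were on the KO cauda list. From 100 to under 200 UMIs it stood at 99817 CPM in 24 barcodes with Syce2 and 10212 CPM in 1652 without a member. From 200 to under 500 it stood at 105942 CPM in 40 and 12056 CPM in 469. Without the barcodes of that list the gap was smaller: 107424 CPM in 22 barcodes with Syce2 and 35170 CPM in 464 without a member from 100 to under 200 UMIs, and 113081 CPM in 37 and 31546 CPM in 152 from 200 to under 500. At 50 to 99 UMIs it was then 41988 and 25252 CPM. Genes whose UMIs were spread over the bins most like the summed members were ranked among 8412 genes by total variation distance, which is 0 for the same spread. The 6 nearest were Smcp (0.0286), a sperm mitochondrial sheath gene, Ldhc (0.0301), Rnf138 (0.0332), Oaz3 (0.0358), a spermatid antizyme, C1qtnf4 (0.0362) and Ccsap (0.0362), against a median distance of 0.391. Most of the summed UMIs are those of Syce2, so this ranking describes that gene. Without the barcodes of the KO cauda list the 6 nearest of 5440 genes were Ube2n (0.0275), Oser1 (0.0292), Ldhc (0.0323), Oaz3 (0.0347), Smcp (0.0362) and Cabs1 (0.0372), 3 of them the same, against a median of 0.197.

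The genes nearest to the other 9 members summed were Trp53rkb (0.0281), Fnbp4 (0.0357), Stk25 (0.0376), Pan2 (0.0378), Entr1 (0.0387) and Preb (0.0393), none of them a gene of the sperm lists, against a median of 0.253. That ranking did not hold without the barcodes of the KO cauda list, where 0 of these 6 were among the 6 nearest: Cetn4 (0.0667), Agbl5 (0.0731), Trim37 (0.0738), Gkap1 (0.0743), Trim24 (0.0775) and Cenpv (0.0776), against a median of 0.291. In barcodes of at least 500 UMIs the 9 genes had 56 UMIs in 24 barcodes, and 36 of them lay in cluster 3, an unnamed group of 45 cells led by Ccr2, Ccl5 and Nkg7. A single barcode of 3256 UMIs in that cluster held 14: 4 of Sycp3, 3 each of Sycp2 and Hormad1, 2 of Syce1 and 1 each of Sycp1 and Stag3, with 0 of Syce2. It also held 5 UMIs of Ldhc, 3 each of Piwil1 and Hspa2, 2 of Ddx4 and 42 of the macrophage list, and 19.2% of its UMIs were mitochondrial. It was on neither the KO cauda nor the testis list, and 6 is the highest number of members in any cauda barcode. A second barcode, of 858 UMIs, held Sycp1, Syce1 and Stag3 and was not on the KO cauda list. The third joint barcode, of 4162 UMIs, held 4 UMIs of Syce2 and 1 each of Syce1 and Stag3, with 334 of the protamine gene Prm1. It was on the KO cauda list, where it had 714 UMIs.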

How the data were processed

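The deposited matrices hold raw UMI counts per gene and barcode, whole numbers with no normalization by the authors. Build GRCm38.p6 and the tools Seurat 4.2.1 and Cell Ranger 6 are given in the submitters' processing notes. Cell Ranger 4 is named in the header of the chimera's file and Cell Ranger 6.1.2 in those of both KO files, so software version and chimera cannot be told apart. Libraries were grouped by title, with 1 per group. The members, lists, motifs and settings were chosen with earlier results of these data known.

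From the counts, CPM were computed over all genes, with exact Poisson intervals for levels, exact binomial (Clopper-Pearson) intervals for shares and exact conditional binomial intervals for ratios, all at 95%, covering counting error only. A count of 0 was set at 3 UMIs. No test of groups was run. A gene was counted at 4-fold if it had at least 4 UMIs in either library and at least 1 in the library called higher, a condition added after the data were seen, since a floor under its own 0 would count genes that only the other library holds. A list's median log2 ratio used the floor. Cells had at least 500 UMIs, 200 genes and at most 20% mitochondrial UMIs. Doublets were scored against 2 simulated doublets per cell, the top 0.8% per 1000 cells being removed. Each library was clustered alone (2000 variable genes, 30 components, 15 neighbours, Leiden resolution 0.5, seed 7). Python 3.11.15, scipy 1.17.1, scanpy 1.11.5 and leidenalg 0.10.2 were used, and the ratio and fold call were tested on simulated data.

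Named genes were all 10 members, the 4 of each other list with most UMIs in the library or barcodes described, the 8 genes with the highest share in joint testis barcodes and the 6 nearest over chimera bins. Gene models, names ending in Rik and mitochondrial genes were left out of both rankings. Positions and overlaps are from the GENCODE annotation of GRCm38. Others, such as genes of the Stra8 split, division genes and single barcodes, were chosen after their values were seen. 6 list symbols were matched by an older name and Spo16 was not matched. The alternatives were other UMI minimums, thinning, other joint rules, other clusterings and, added after the shared barcodes were seen, their removal.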

Additional observations from a re-analysis of the deposited data

How the results depend on the processing

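No paired analysis was possible because each group has 1 library. Removing shared barcodes, also from the Syce2 comparison and the likeness rankings, and filter failures or doublets was added after seeing the data. The summed ratio of the 10 members in the chimera cauda over the KO cauda, 36.5-fold, was 14.0 over barcodes of at least 500 UMIs, 63.4 with only chimera barcodes below 500 UMIs and 87.1 without shared barcodes. For the 9 without Syce2 it was 23.4 and 78.5 at the minimum of 500 UMIs and without shared barcodes. With the KO cauda thinned to the chimera's total, 6 of 8 members stayed past 4-fold, and Sycp3 and Hormad1 stood at 3.67 and 1.67 against the floor. Joint testis barcodes, 113 in the main rule, numbered 257 with at least 2 members and 62 when thinned to 2000 UMIs. The share of the 9 members' UMIs in joint barcodes, 88.5%, was 91.4% with at least 2 members, 85.8% with at most 20% mitochondrial UMIs, 86.9% with 2 UMIs for presence, 73.8% when thinned, and 73.5% without barcodes that fail the filter or are called doublets. The members' share below 500 UMIs, 79.1%, was 63.2% without Syce2, 71.0% with the boundary at 100 UMIs and 82.2% without shared barcodes. The share of all UMIs below 500 UMIs, 45.5%, was 93.7% without shared barcodes, so the members' share was then below it. Depth limits the chimera most: 3 UMIs there are 0.556 CPM, above the KO cauda level of 9 of the 10 members.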
